A study of Mus musculus with 2 samples.

Results

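The genes described here encode 56 subunits of the mitochondrial respiratory chain and ATP synthase, 43 from nuclear DNA and 13 from mitochondrial DNA. They were chosen by gene symbol from the 31053 genes of the count tables, and each symbol was found there. Atp5o matched 2 gene IDs, of which ENSMUSG00000116933 had no UMI in any class, so the values of Atp5o are those of ENSMUSG00000022956. Complex I holds 11 of the nuclear and 7 of the mitochondrial members, complex II 4 nuclear members, and complex III 6 nuclear members and 1 mitochondrial member. Complex IV holds 11 nuclear members, among them Ndufa4, which was first assigned to complex I, and 3 mitochondrial members. ATP synthase, or complex V, holds 11 and 2. A UMI (unique molecular identifier) marks 1 captured RNA molecule, and levels are UMIs of a gene per 1000000 UMIs of the cell class (CPM).

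The respiratory chain passes electrons from NADH and succinate through complexes I to IV to oxygen and pumps protons across the inner mitochondrial membrane, and ATP synthase uses that gradient to make ATP. Complex II is built from nuclear subunits alone, and the other complexes from subunits of both genomes. Nuclear subunit genes are transcribed one by one and their proteins are imported, whereas the mitochondrial genes are transcribed inside the organelle as long precursors that are cut apart. Resting and alternatively activated macrophages are known for oxidative metabolism, and strongly activated inflammatory macrophages for glycolysis.

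Total peritoneal cells were collected 3 days after each animal, aged 10 to 14 weeks, had received 1 mg of zymosan, a yeast cell wall preparation. The library labelled Cd36-/- is from animals of the strain LysM-Cre x floxed CD36. LysM-Cre is driven by the lysozyme 2 gene and acts in macrophages, neutrophils and part of the other myeloid cells. The library labelled fl/fl is from animals that carry floxed CD36, and zymosan and the floxed gene are thus common to both groups. Every library pools 4 replicates and stands alone in its group, so the spread between animals is unknown and no test was made. Intervals are 95% intervals of counting error. Genotype, pool and library preparation cannot be told apart. Pairs of values below have Cd36-/- first and fl/fl second, and a log2 ratio is Cd36-/- over fl/fl.

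The libraries had 16543 and 15537 barcodes with 116600732 and 117238057 UMIs, of which 16000 and 14733 barcodes were kept as cells, and 383 barcode sequences occurred in both. Cells were placed in classes by gates on marker genes, so a class name stands for cells that carry those markers. The gates held 10106 and 7728 macrophages, 3007 and 4385 B cells, 615 and 549 T cells, 441 and 303 natural killer (NK) cells, 127 and 206 type 2 conventional dendritic cells (cDC2) and 69 and 105 neutrophils. Among macrophages, 4195 and 3156 passed the gate for large peritoneal macrophages (LPM), with markers such as Gata6 and Timd4, and 4546 and 3626 were low in those markers. A gate is a range: 380 and 365 macrophages and 1369 and 851 LPM-marker-low cells lay within a factor of 1.2 of a limit. The 10 macrophage markers were all detected in macrophages and summed to 9410.0 and 8780.0 CPM. Cd36, the targeted gene, had 172 and 245 CPM (log2 ratio -0.51, interval -0.54 to -0.48) in macrophages and 32.5 and 33.3 CPM in B cells. The labels do not name the floxed exons, so whether a tag from the 3′ end reports the deletion is unknown.

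Some sequences bear on how the values can be read. The mitochondrial genes lie next to each other on chrM of GRCm38, and some share bases. The 43 bases at chrM:7927-7969, plus strand, belong both to the end of mt-Atp8 and to the start of mt-Atp6 and are shown because a tag within them cannot tell the genes apart. Capitals mark the start codon of mt-Atp6.
mt-Atp8 and mt-Atp6 overlap: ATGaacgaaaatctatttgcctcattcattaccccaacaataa
A further 7 bases at chrM:10167-10173 are common to mt-Nd4l and mt-Nd4. Copies elsewhere also limit the count. Of all words of 31 bases in the last 400 bases of a transcript, those also found in transcripts of other genes made up 100% for mt-Co1, 100% for mt-Co2, 99.7% for mt-Co3, 99.2% for mt-Atp6, 98.9% for mt-Nd4l and 98.1% for mt-Nd3. None of these words is in another gene of the count tables. The share was 30.3% for mt-Nd2 and 0% for mt-Nd1 and mt-Nd4. Among nuclear members it was 0% for Sdhb, Cox4i1, Cox6b1 and Atp5e, 18.9% for Atp5k, 45.6% for Atp5g1, 49.7% for Atp5o, 55.7% for Uqcrb, 69.3% for Atp5h and 79.7% for Atp5l. Values of the genes with large shares are uncertain, since reads may have been split or dropped.

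Promoters were searched because nuclear respiratory genes are known to share sites for the factors NRF1, GABPA (an ETS factor) and YY1. The window ran from 250 bases before to 50 bases after each start in the RefSeq table of GRCm38.p6. The letters searched on both strands were CCGGAAG for ETS factors, AAGATGGC for YY1, and for NRF1 the palindrome made of GCGCA followed directly by TGCGC. The table held 34 of the nuclear members. The ETS letters were in 13 of them (38.2%) and in 9.93% of all 27025 genes, the NRF1 letters in 3 (8.82%, against 1.07%) and the YY1 letters in 3 (8.82%, against 3.19%). Shown are the nuclear member with the highest ratio between the libraries in macrophages, a member with both NRF1 and ETS letters, and the nuclear member with the lowest ratio. Capitals mark matches to the letters.
Sdhb promoter, chr4:140961021-140961320, plus strand: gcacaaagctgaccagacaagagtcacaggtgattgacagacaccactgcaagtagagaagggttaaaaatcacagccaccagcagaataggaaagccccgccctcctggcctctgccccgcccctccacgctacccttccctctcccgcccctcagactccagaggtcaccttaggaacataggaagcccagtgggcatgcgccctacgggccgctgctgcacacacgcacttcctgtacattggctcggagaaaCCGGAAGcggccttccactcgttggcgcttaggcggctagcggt
Cox6a1 promoter, chr5:115348909-115349208, minus strand: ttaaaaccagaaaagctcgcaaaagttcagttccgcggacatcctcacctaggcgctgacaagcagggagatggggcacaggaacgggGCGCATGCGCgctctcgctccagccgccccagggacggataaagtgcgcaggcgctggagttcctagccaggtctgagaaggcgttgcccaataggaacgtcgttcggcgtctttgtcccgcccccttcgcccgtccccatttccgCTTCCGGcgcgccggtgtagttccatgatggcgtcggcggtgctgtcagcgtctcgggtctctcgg
Atp5k promoter, chr5:108434350-108434649, minus strand: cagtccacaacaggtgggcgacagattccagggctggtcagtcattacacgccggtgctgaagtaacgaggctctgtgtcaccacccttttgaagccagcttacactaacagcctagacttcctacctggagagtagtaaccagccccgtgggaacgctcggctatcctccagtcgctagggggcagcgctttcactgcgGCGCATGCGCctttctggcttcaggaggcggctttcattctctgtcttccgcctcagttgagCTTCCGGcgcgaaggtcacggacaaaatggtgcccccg
Of the 13 members with the ETS letters, 11 had a higher level in Cd36-/- macrophages, and of the 21 members without them 18 did. For the NRF1 letters the counts were 1 of 3 with them (median log2 ratio -0.038) and 28 of 31 without (0.094), and for the YY1 letters 3 of 3 and 26 of 31. Both Sdhb, which was higher, and Atp5k, which was lower, hold the ETS letters, and Atp5k also holds the NRF1 letters. A match is a match of letters, not a bound site.

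In macrophages the members of the nuclear and the mitochondrial genome lay on opposite sides between the libraries. Nuclear members summed to 20281 and 19194 CPM (log2 ratio 0.079, interval 0.076 to 0.083). Mitochondrial members summed to 24057 and 25946 CPM (-0.11, interval -0.11 to -0.11). Mitochondrial UMIs per nuclear member UMI, called the genome ratio below, were 1.19 and 1.35, with a log2 ratio of -0.19 (interval -0.19 to -0.18). The genome ratio rests on how well each kind of RNA is captured, so it is read only between libraries and classes.

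Genes were compared where at least 1 library reached 20 CPM, which left out mt-Nd6, the member encoded on the minus strand of mitochondrial DNA, at 5.24 and 6.64 CPM. Of the 43 nuclear members, 36 were higher in Cd36-/- macrophages, where 46.1% of the 4591 genes compared were, and their median log2 ratio was 0.090 against -0.012 over all genes. An interval above 0 was found for 35 of them (29.4% of genes) and one below 0 for 5 (35.0% of genes). The background depends on level: of the 1160 genes with at least 100 CPM, 59.0% were higher, and 32 of the 38 nuclear members at that level were. None of the 12 mitochondrial members compared was higher (median -0.13), and 53.9% of all genes were lower. The sizes were small. At least 1.2-fold higher was 1 nuclear member, Sdhb, with 2.64% of genes past that size, and at least 1.2-fold lower were mt-Nd2 and mt-Nd3, with 4.07% of genes.

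**Figure D1:**
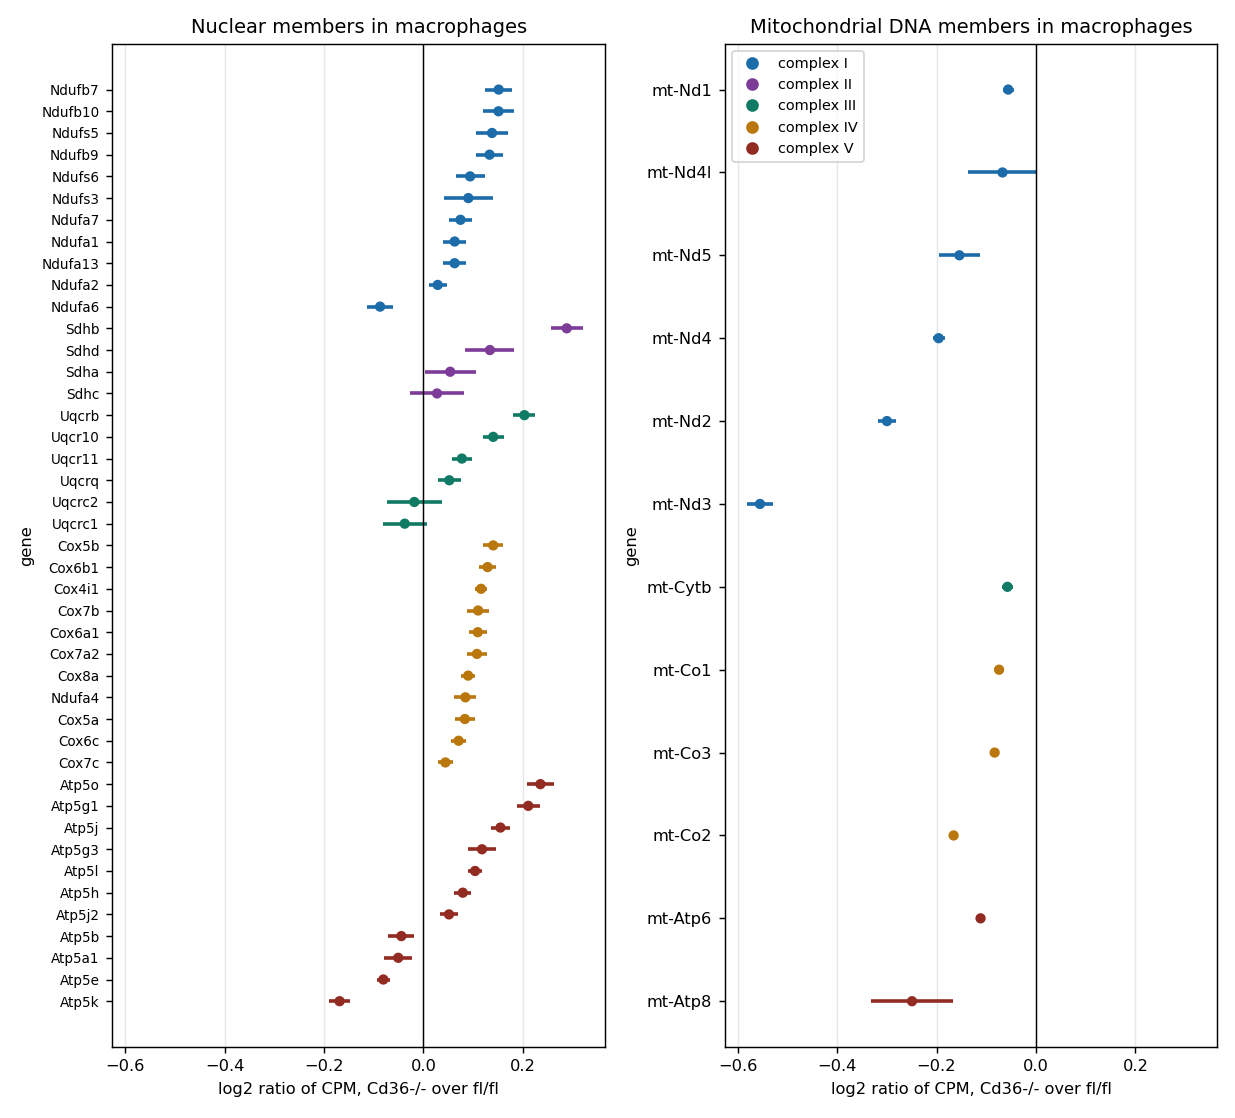
Log2 ratio of CPM, Cd36-/- over fl/fl, of each member compared in macrophages, with 95% counting intervals as lines, nuclear and mitochondrial members apart and colours for the complex. Of 43 nuclear members 36 lie right of 0, and the 12 mitochondrial members lie left of it, mt-Nd3 farthest at -0.56.

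Complex I takes electrons from NADH and is the largest complex. Of its 11 nuclear members 10 were higher in Cd36-/- macrophages. Ndufb7, an accessory subunit of the membrane arm, had 287 and 258 CPM (log2 ratio 0.15, interval 0.12 to 0.18). Ndufb10 and Ndufb9, of the same arm, had 232 and 209 CPM (0.15, interval 0.12 to 0.18) and 289.8 and 264 CPM (0.13). The exception was the accessory subunit Ndufa6 with 302 and 320.4 CPM (-0.087, interval -0.11 to -0.062), and the other 7 lay between 0.029 for Ndufa2 and 0.14 for Ndufs5. The mitochondrial members of complex I, which are core subunits of the membrane arm, included the 2 lowest ratios of the set. For mt-Nd3, at chrM:9459-9806, the levels were 253 and 371 CPM (log2 ratio -0.56, interval -0.58 to -0.53), and for mt-Nd2, at chrM:3914-4951, they were 574 and 707 CPM (-0.30, interval -0.32 to -0.28). The proton-pumping subunit mt-Nd4 had 1239 and 1419 CPM (-0.20) and mt-Nd5, another pump, 109 and 121 CPM (-0.15). The ratio of mt-Nd1, where ubiquinone enters, was nearer to 0 with 1687 and 1753 CPM (-0.056), and the interval of mt-Nd4l was -0.14 to 0.0017.

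Complex II oxidises succinate in the tricarboxylic acid cycle, and its 4 members were higher in Cd36-/- macrophages. The iron-sulphur subunit Sdhb, at chr4:140961203-140979193 on the plus strand, had 222 and 182 CPM (log2 ratio 0.29, interval 0.26 to 0.32). The membrane anchor Sdhd had 87.9 and 80.1 CPM (0.13, interval 0.084 to 0.18) and the flavoprotein Sdha 79.4 and 76.5 CPM (0.054). The interval of Sdhc, the other anchor, was -0.027 to 0.082 and held 0.

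Complex III passes electrons from ubiquinol to cytochrome c. Of its 6 nuclear members 4 were higher, led by the small subunit Uqcrb with 441 and 383 CPM (log2 ratio 0.20, interval 0.18 to 0.23). The small subunits Uqcr10 and Uqcr11 had 467 and 424 CPM (0.14) and 528 and 500.3 CPM (0.077). Both large core subunits, Uqcrc1 with 103 and 106 CPM and Uqcrc2 with 65.5 and 66.4 CPM, had intervals that held 0. The mitochondrial member mt-Cytb, which binds the haem groups of cytochrome b, had 1852 and 1926 CPM (-0.057, interval -0.068 to -0.047).

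Complex IV reduces oxygen to water, and its 3 core subunits are mitochondrial. Its 11 nuclear members were higher with intervals above 0, and its mitochondrial members were lower with intervals below 0, so the gap between the genomes was present within 1 complex. Cox5b, a zinc-binding subunit, had 537 and 487 CPM (log2 ratio 0.14, interval 0.12 to 0.16). Cox6b1 had 803 and 734 CPM (0.13) and the regulatory subunit Cox4i1 1461 and 1349 CPM (0.12), and the lowest ratio of the 11 was 0.044 for Cox7c. The catalytic subunit mt-Co1 had 5998 and 6314 CPM (-0.074), mt-Co2, which accepts electrons from cytochrome c, 2562 and 2873 CPM (-0.17, interval -0.17 to -0.16), and mt-Co3 5302 and 5616 CPM (-0.083).

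The nuclear members of ATP synthase were divided, 7 higher and 4 lower, with the 11 intervals off 0. Atp5o, a subunit of the stalk that holds the catalytic head in place, had 317 and 269 CPM (log2 ratio 0.24, interval 0.21 to 0.26). Atp5g1, a gene for the ring of c subunits that protons turn, had 410.1 and 354 CPM (0.21, interval 0.19 to 0.23). Lowest was Atp5k, the small e subunit of the membrane part, with 398 and 448 CPM (-0.17, interval -0.19 to -0.15). The other 3 on the lower side belong to the catalytic head and its central stalk, Atp5e with 1085 and 1147 CPM (-0.081), Atp5a1 with 259.5 and 269 CPM (-0.051) and Atp5b with 284 and 293 CPM (-0.044). The proton channel subunit mt-Atp6 had 4408 and 4762 CPM (-0.11) and its overlapping neighbour mt-Atp8 27.0 and 32.1 CPM (-0.25, interval -0.33 to -0.17).

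The 5 macrophage subsets gated overlap, because cycling and non-cycling cells are a second division of the same macrophages. Each of the 5 showed a lower genome ratio in the Cd36-/- library. It was 1.46 and 1.69 in LPM (log2 ratio -0.21), 1.02 and 1.16 in LPM-marker-low (-0.19), 1.03 and 1.17 in cycling (-0.18) and 1.24 and 1.42 in non-cycling macrophages (-0.20). Retnla-high macrophages, with 257 and 351 cells, had 1.04 and 1.27 (-0.30, interval -0.32 to -0.27), with mitochondrial sums of 22077 and 26749 CPM and nuclear sums of 21321 and 21000 CPM. Their median depths were 7629 and 6333 UMIs, so fl/fl cells were the shallower ones, unlike in all macrophages. At 4000 to below 8000 UMIs the genome ratio was 1.09 and 1.32 in Retnla-high cells, against 1.35 and 1.69 in all macrophages. At 8000 to below 16000 it was 1.01 and 1.17 against 1.12 and 1.29. At 500 to below 2000 it was 1.625 and 2.63 against 2.17 and 2.97. Retnla-high cells thinned to 2000 UMIs gave 1.08 and 1.37 (-0.34). Thinning drops cells under 2000 UMIs and gives the others equal weight, but leaves the expected genome ratio of each cell unchanged. Nuclear members higher numbered 39 of 43 in LPM (50.6% of genes), 35 of 43 in LPM-marker-low (45.0%), 26 of 43 in Retnla-high (46.0%), 34 of 43 in cycling (44.6%) and 37 of 43 in non-cycling macrophages (47.9%). The count in Retnla-high cells was thus nearer to its background than the others. In these cells the LPM markers summed to 2259.8 and 1223 CPM and the macrophage markers to 11769 and 9466 CPM, and their part in the values was not tested.

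The subsets differed in single members. In LPM the highest ratios were those of Atp5g1 with 387 and 306 CPM (0.34, interval 0.30 to 0.38) and Atp5o with 261 and 206 CPM (0.34, interval 0.29 to 0.39), and in LPM-marker-low cells that of Sdhb with 250.4 and 197 CPM (0.35, interval 0.30 to 0.39). Cox5a, a matrix-side subunit of complex IV, had 413 and 346 CPM (0.25) in LPM and 645 and 628 CPM (0.037) in LPM-marker-low cells. For mt-Nd1 the levels were 1985 and 1892 CPM (0.070, interval 0.053 to 0.086) in LPM and 1479 and 1658 CPM (-0.16, interval -0.18 to -0.15) in LPM-marker-low cells, on opposite sides, and for mt-Cytb the ratios were 0.019 and -0.12. These differences between subsets were not tested.

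Depth per cell moved with the genome ratio, and median depths differed, at 8160.5 and 9151.5 UMIs in macrophages. From cells of 500 to below 2000 UMIs to cells of 16000 or more, the ratio went from 2.17 to 0.972 in Cd36-/- and from 2.97 to 1.13 in fl/fl macrophages. The fl/fl value was the higher one in each of the 5 depth ranges, with 1.35 and 1.69 at 4000 to below 8000 UMIs and 1.12 and 1.29 at 8000 to below 16000. Cells thinned to 2000 UMIs gave 1.27 and 1.49 (-0.23), which does not remove the link between depth and genome ratio, since each cell keeps its expected ratio. The limit of 10% mitochondrial UMIs acts on the sum of the mitochondrial members themselves. It removed 107 and 131 macrophages, and without it the ratios were 1.202 and 1.381 (-0.20).

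**Figure D2:**
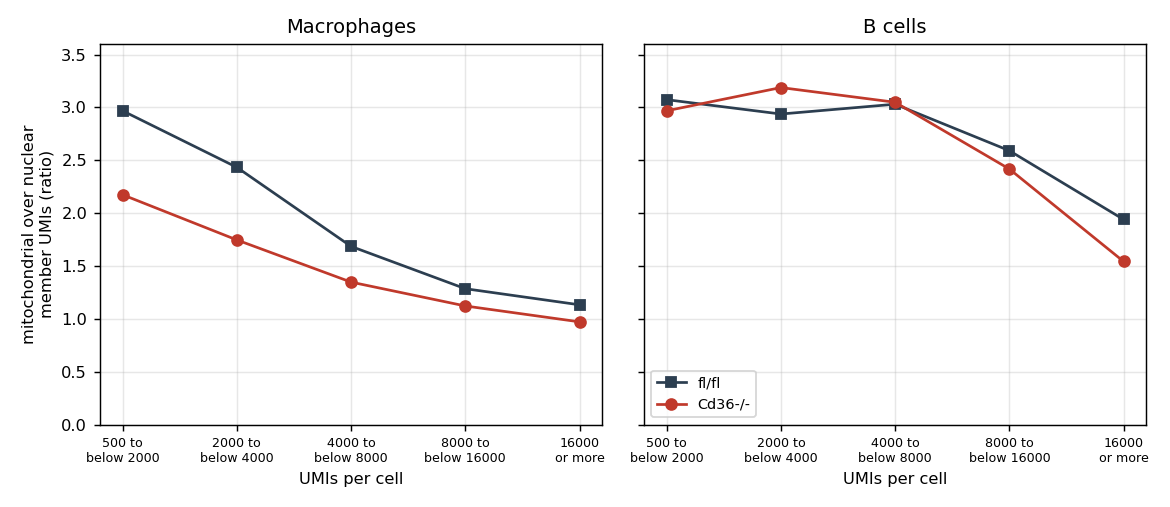
Mitochondrial over nuclear member UMIs in 5 ranges of UMIs per cell, for macrophages and for B cells, in both libraries. The fl/fl line lies above the Cd36-/- line at each depth in macrophages, from 2.97 against 2.17 to 1.13 against 0.972, and the lines cross in B cells.

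B cells, T cells and NK cells are not myeloid. In B cells nuclear members summed to 13372 and 13281 CPM (log2 ratio 0.0099) and mitochondrial members to 36318 and 35539.9 CPM (0.031), and both signs turned, to -0.026 and -0.0043, when mitochondrial and ribosomal protein genes were left out of the total. The genome ratio was 2.72 and 2.68 (0.021, interval 0.012 to 0.031), and the Cd36-/- value was the higher one in 2 of 5 depth ranges. Higher were 25 of 43 nuclear and 6 of 12 mitochondrial members, against 54.7% of genes. B-1 cells had genome ratios of 2.66 and 2.61, with 21 of 43 nuclear members higher (54.7% of genes), and B-2 cells 2.83 and 2.79, with 32 of 43 (56.3%). The limit of 10% removed 28 and 62 B-1 and 19 and 63 B-2 cells, and without it the log2 ratios of both turned below 0, to -0.0040 (interval -0.018 to 0.010) and -0.0042 (-0.025 to 0.017).

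In T cells the genome ratio was 2.04 and 2.07 (interval of the log2 ratio -0.049 to 0.0077). Of their nuclear members 30 of 43 were higher, against 60.0% of genes. The median log2 ratio of these members lay between -0.028 and 0.051 under the 12 alternatives. Over all genes of the class it was 0.067 with the settings used above, so the members did not lie above the typical gene. The count of members higher was 15 when mitochondrial and ribosomal protein genes were left out of the total. That total shifts all genes of the class by the same amount, and the share of all genes under it is not given here. NK cells had 1.52 and 1.63 (-0.10, interval -0.14 to -0.061), with 31 of 43 nuclear members higher against 54.5% of genes. In most NK cells, 260 and 209 at 2000 to below 4000 UMIs, the genome ratio was 1.56 and 1.55. It was 1.56 and 1.61 at 500 to below 2000 UMIs, and 1.38 and 1.87 in the 21 and 28 NK cells at 4000 to below 8000. Among myeloid cells, cDC2 had 1.12 and 1.22 (-0.12, interval -0.16 to -0.085), with 36 of 43 against 56.4%, and 1.17 and 1.22 (-0.059, interval -0.14 to 0.020) in cells thinned to 2000 UMIs, where the interval held 0. The fl/fl value of cDC2 was the higher one in both depth ranges compared. The values were 1.198 and 1.38 at 4000 to below 8000 UMIs, in 83 and 63 cells. At 8000 to below 16000 UMIs they were 1.02 and 1.14, in 37 and 131 cells. Neutrophils, with medians of 713 and 899 UMIs per cell, had 0.437 and 0.382 (interval -0.031 to 0.41), with 25 of 43 against 45.8%. Without the limit of 10% the neutrophil values were 0.519 and 0.382 (0.44, interval 0.23 to 0.66), an interval above 0, and the limit had removed 1 and 0 cells.

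Markers of other cells were present in these classes and differed between the libraries. Macrophage markers summed to 581 and 430.5 CPM in B cells, 675 and 446 CPM in T cells, 765 and 548 CPM in NK cells and 863 and 732 CPM in cDC2. In NK cells the 8 cycling markers summed to 187 and 39.7 CPM and the 4 haemoglobin genes to 2.79 and 2381 CPM. Their part in the values of these classes was not tested.

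Some members lay on the same side in each of macrophages, B cells, T cells, NK cells and cDC2. Higher in the Cd36-/- library in the 5 classes were 12 of 43 nuclear members, Ndufb7, Ndufs5, Ndufs6, Sdhb, Uqcrb, Cox4i1, Cox5b, Cox6b1, Cox6c, Atp5g1, Atp5g3 and Atp5o. Of the 3172 genes compared in each class, 15.9% were higher in the 5. The count of members was 5 of 43, Sdhb, Cox4i1, Atp5g1, Atp5g3 and Atp5o, with mitochondrial and ribosomal protein genes left out of the total. That total shifts all genes of a class by the same amount. The share of all genes under it is not given here, so this count has no background. The log2 ratio of Sdhb ranged from 0.13 to 0.29 and that of Cox4i1 from 0.077 to 0.14. Lower in the 5 classes were 1 nuclear member, Atp5k (-0.33 to -0.080), and 4 of the 11 mitochondrial members compared in each class, beside 8.01% of genes. With the other total these were 3 nuclear and 5 mitochondrial members, again without a share of all genes. No mitochondrial member was higher in the 5 classes with either total. The 4 were mt-Nd3 (-0.56 to -0.27), mt-Nd2 (-0.30 to -0.091), mt-Nd4 (-0.20 to -0.014) and mt-Co2 (-0.17 to -0.022). The 5 intervals of mt-Nd3 lay below 0, while those of mt-Nd2 in NK cells, and of mt-Nd4 and mt-Co2 in NK and T cells, held 0. Classes of 1 library share its preparation and free RNA and are not independent replicates.

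In B cells the lowest ratios were those of mt-Nd3 with 377 and 492 CPM (-0.39, interval -0.43 to -0.34), mt-Nd2 with 1034 and 1197 CPM (-0.21, interval -0.24 to -0.18) and Atp5k with 231 and 262 CPM (-0.18, interval -0.24 to -0.12). On the higher side, ranked by interval bound, were Cox4i1 with 1038 and 956 CPM (0.12), mt-Co3 with 8479 and 7921 CPM (0.10) and mt-Co1 with 7592 and 7199.5 CPM (0.077), so that these 2 core subunits of complex IV and its nuclear subunit Cox4i1 lay on the same side there, while the core subunit mt-Co2 had 3832 and 3890.3 CPM (-0.022, interval -0.037 to -0.0070). T cells had 373 and 449 CPM (-0.27, interval -0.41 to -0.13) of mt-Nd3 and 253 and 319 CPM (-0.33, interval -0.50 to -0.16) of Atp5k. NK cells had 319 and 399.7 CPM (-0.32, interval -0.55 to -0.10) of mt-Nd3, and on the higher side 481 and 369.6 CPM (0.38, interval 0.17 to 0.59) of Cox5b and 509 and 407 CPM (0.32) of the complex I subunit Ndufa2. Of the mitochondrial UMIs of its class, mt-Nd3 made up 1.05% and 1.43% in macrophages and 1.04% and 1.38% in B cells. The share of mt-Nd3 was thus close in the 2 classes and lower in the Cd36-/- library in both, whereas mt-Co1 made up 24.9% and 24.3% in macrophages and 20.9% and 20.3% in B cells.

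**Figure D3:**
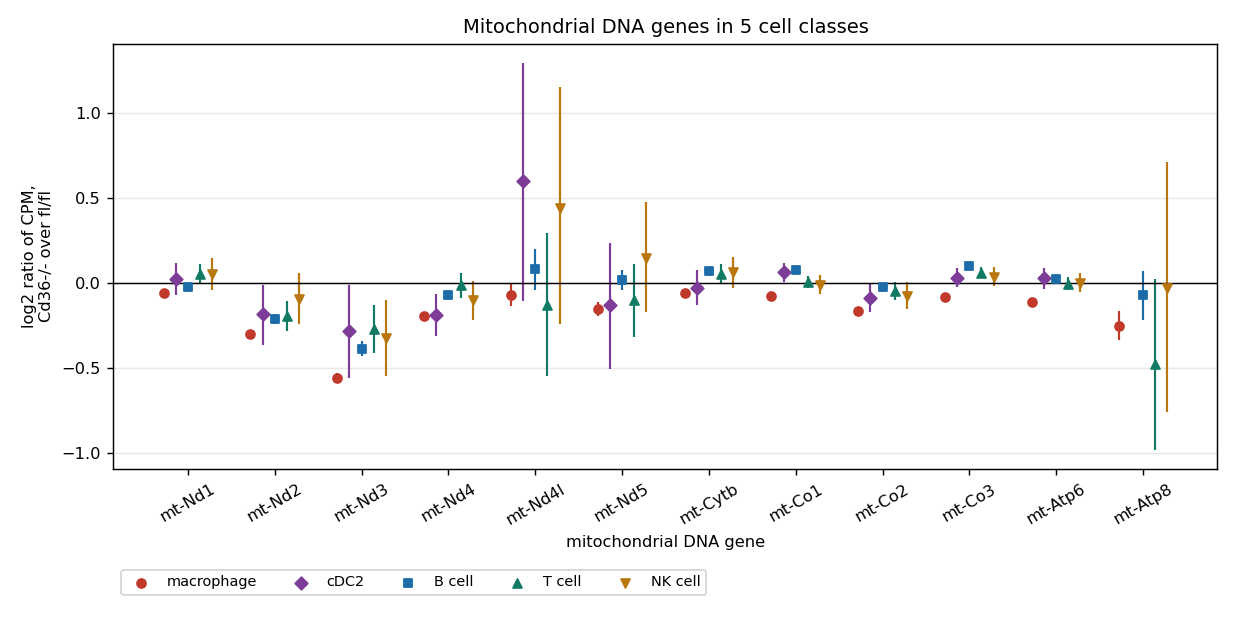
Log2 ratio of CPM, Cd36-/- over fl/fl, of the mitochondrial members that reached 20 CPM, in 5 cell classes, with 95% counting intervals. The points of mt-Nd3 and mt-Nd2 lie below 0 in the 5 classes, and those of mt-Co1, mt-Co3, mt-Atp6 and mt-Cytb lie below 0 in macrophages and above 0 in B cells, where mt-Atp6 turned to -0.010 with mitochondrial and ribosomal protein genes left out of the total.

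Over all cells of a class, both libraries gave the same order of classes. The genome ratio was highest in B cells (2.72 and 2.68), followed by T cells (2.04 and 2.07), NK cells (1.52 and 1.63), macrophages (1.19 and 1.35), cDC2 (1.12 and 1.22) and neutrophils (0.437 and 0.382). Macrophages and cDC2 were the closest neighbours, and the fl/fl value of cDC2 was above the Cd36-/- value of macrophages. Median depths differed, at 3907 and 4490 UMIs in B cells, 2799 and 3310 in T cells, 2177 and 2499 in NK cells and 6941 and 8696.5 in cDC2, and the order was another one at like depth. At 2000 to below 4000 UMIs the genome ratio was 3.19 and 2.94 in B cells, 2.25 and 2.25 in T cells, 1.75 and 2.43 in macrophages and 1.56 and 1.55 in NK cells. Macrophages thus lay above NK cells in both libraries and above T cells in fl/fl there. B cells lay above macrophages in each of the 5 depth ranges, and cDC2 below them in both ranges compared, in both libraries.

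Against macrophages, 40 of 43 nuclear members were lower in B cells in each library (medians -0.59 and -0.52) and 12 of 12 mitochondrial members were higher (0.60 and 0.47), while 41.6% and 41.3% of genes were higher. At like depth nuclear shares stayed lower in B cells in the 5 ranges, while mitochondrial shares turned in fl/fl below 4000 UMIs and in Cd36-/- below 2000. Of all UMIs of cells with 2000 to below 4000, nuclear members made up 1.24% and 1.23% in B cells and 2.09% and 1.75% in macrophages, and mitochondrial members 3.96% and 3.61% and 3.65% and 4.26%. At 500 to below 2000 UMIs the mitochondrial shares were 3.91% and 3.82% in B cells and 4.08% and 4.69% in macrophages, and at 4000 to below 8000 they were 3.83% and 3.75% and 2.69% and 3.05%.

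The nuclear members farthest below macrophages in B cells included Uqcr11 (-1.29 and -1.17) and Uqcrb (-1.12 and -0.95) of complex III, Ndufa1 (-1.09 and -0.99) of complex I and Cox5a (-1.05 and -0.93) of complex IV. The core subunit Uqcrc2 was higher in B cells in both libraries (0.23 and 0.073), in contrast to the other 2 members of complex III just named. Of the mitochondrial members, mt-Nd5 had the highest ratio (1.19 and 1.02) and mt-Co1 the lowest (0.34 and 0.19).

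**Figure D4:**
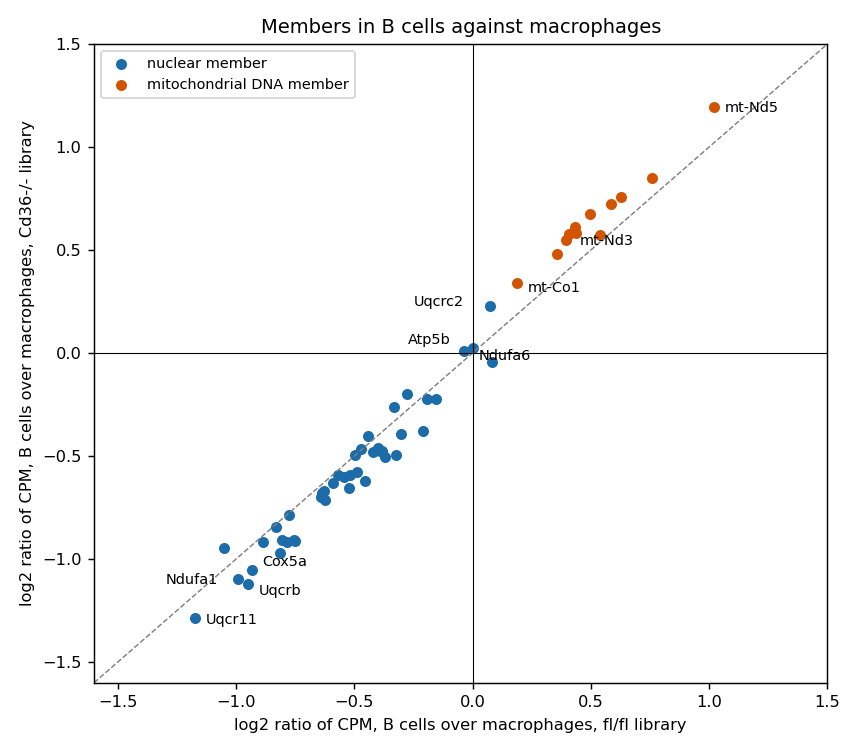
Log2 ratio of CPM, B cells over macrophages, of each member compared, in one library against the other, with nuclear and mitochondrial members in different colours. The 12 mitochondrial members lie above 0 in both libraries, and 40 of 43 nuclear members lie below 0 in each, down to -1.29 for Uqcr11.

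T and NK cells also had lower levels of most nuclear members than macrophages, 38 of 43 in T cells in each library (49.4% and 45.9% of genes were higher) and 33 and 34 of 43 in NK cells (59.4% and 57.0%). Uqcr11 was again the lowest, with -1.33 and -1.30 in T cells and -1.10 and -0.91 in NK cells, followed by Sdhb with -1.08 and -1.06 and -0.84 and -0.75. Uqcrc2 was again the highest, with 0.47 and 0.55 in T cells and 0.43 and 0.42 in NK cells. Mitochondrial members were higher than in macrophages for 12 of 12 in T cells in each library, and for 11 and 7 of 12 in NK cells. At like depth this turned in most ranges. At 2000 to below 4000 UMIs the mitochondrial share was 3.20% and 3.19% in T cells and 2.59% and 2.49% in NK cells, both below the 3.65% and 4.26% of macrophages, and at 4000 to below 8000 it was 2.925% and 2.958% in T cells and 2.692% and 3.048% in macrophages. Nuclear shares stayed lower, with 1.42% and 1.42% in T cells and 1.66% and 1.60% in NK cells against 2.09% and 1.75% in macrophages at 2000 to below 4000 UMIs.

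In cDC2 both genomes were lower than in macrophages, with 38 and 39 of 43 nuclear and 12 of 12 mitochondrial members lower (44.6% and 40.4% of genes were higher), and mitochondrial sums of 17662 and 17652 CPM. Ndufa6 was an exception there, higher than in macrophages by 0.84 and 0.90 on the log2 scale. Neutrophils had the lowest mitochondrial sums, 6909.9 and 6113 CPM, which were 3.48 and 4.24 times lower than in macrophages, beside nuclear sums of 15828 and 15994 CPM. Few UMIs stood behind these cells, and macrophage markers summed to 1511 and 1305 CPM in them.

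**Figure D5:**
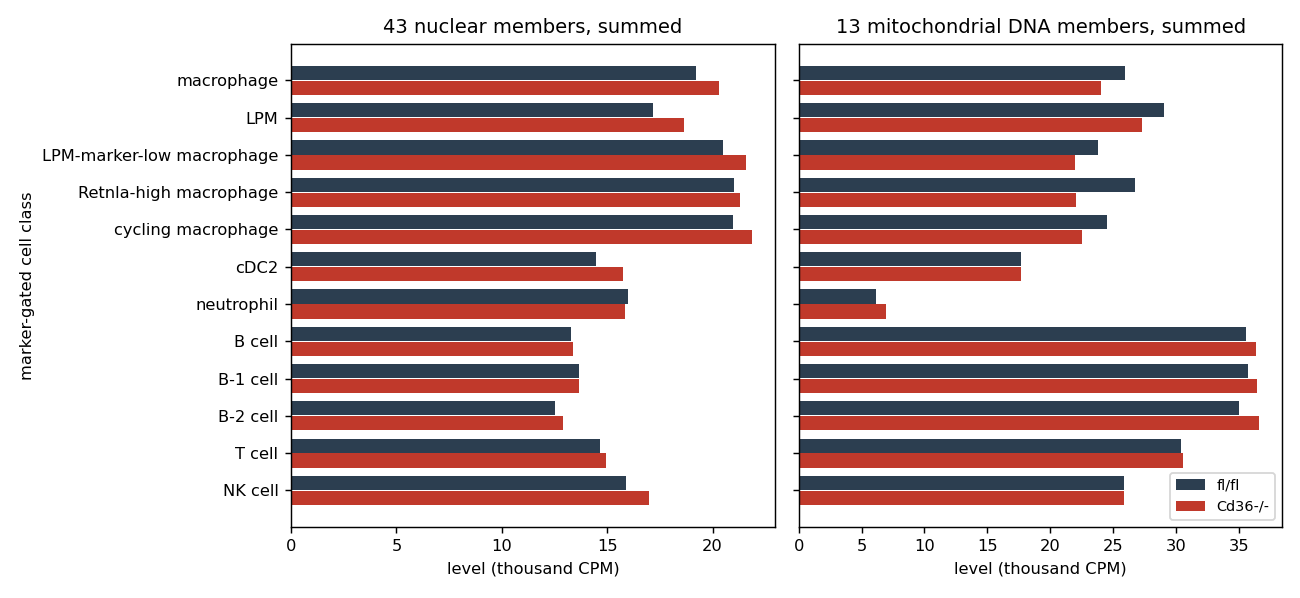
Summed CPM of the nuclear members and of the mitochondrial members in each gated class except non-cycling macrophages, in both libraries. Mitochondrial sums run from 6909.9 and 6113 CPM in neutrophils to 36318 and 35539.9 CPM in B cells, and macrophages have nuclear sums of 20281 and 19194 CPM against 13372 and 13281 CPM in B cells.

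Macrophage subsets differed in the same way in both libraries. Nuclear members were lower in LPM than in LPM-marker-low cells for 36 and 40 of 43 (34.6% and 34.0% of genes were higher), and mitochondrial members were higher for 12 of 12 in each, with sums of 27259 and 29016 CPM in LPM and 21939 and 23827 CPM in LPM-marker-low cells. Cox5a was lowest in LPM (-0.64 and -0.86), Atp5o followed with -0.45 and -0.60, and Ndufa1 was the highest nuclear member (0.44 and 0.39). Cycling macrophages, with at least 3 of 8 cycling markers, exceeded those with none for 34 and 36 of 43 nuclear members (54.3% and 55.2% of genes), led by Uqcr10 (0.42 and 0.47), while 11 and 12 of 12 mitochondrial members were lower in them. Their median depths were 12855 and 15066 UMIs, against 7472.5 and 8133 in non-cycling cells. At 4000 to below 8000 UMIs nuclear members made up 2.28% and 2.01% of UMIs in cycling and 1.97% and 1.78% in non-cycling cells, and mitochondrial members 2.84% and 3.45% and 2.66% and 3.01%, so the mitochondrial side turned there. B-1 cells exceeded B-2 cells for 26 and 33 of 43 nuclear members (34.9% and 36.8% of genes), with nuclear sums of 13684 and 13674 CPM in B-1 and 12923 and 12535 CPM in B-2 cells. Cox5b was higher in B-1 cells (0.32 and 0.32), as was Atp5g1 (0.27 and 0.49). Median depths were 5772.5 and 7415 UMIs in B-1 and 2493 and 2890 in B-2 cells, and at like depth the nuclear shares were close, with 1.235% and 1.210% against 1.250% and 1.226% at 2000 to below 4000 UMIs and 1.257% and 1.235% against 1.279% and 1.227% at 4000 to below 8000.

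Other genes of the same machinery were read from lists that hold no members. Over all genes compared, 46.1% were higher in Cd36-/- macrophages and 54.7% in Cd36-/- B cells. Of genes with at least 100 CPM in macrophages, 59.0% were higher. In macrophages 29 of 36 other subunits were higher in the Cd36-/- library (median log2 ratio 0.10), among them 20 of 25 of complex I. Cytochrome c (Cycs), which carries electrons from complex III to complex IV, had 173 and 147 CPM (log2 ratio 0.23, interval 0.19 to 0.27), and the complex I subunit Ndufb8 had 344 and 301 CPM (0.19). The one ATP synthase gene of these lists on the lower side was Usmg5, a small subunit of the membrane part like Atp5k, with 234 and 268 CPM (-0.19, interval -0.22 to -0.17) in macrophages and 134 and 163 CPM (-0.29, interval -0.36 to -0.21) in B cells. Of the proteins of the mitochondrial ribosome, which translates the 13 mitochondrial members, 44 of 48 were higher in macrophages (median 0.13) and 33 of 48 in B cells (0.041). Farthest above 0 by their intervals were Mrps10 (0.29), Mrpl42 with 132 and 113 CPM (0.21) and Mrpl23 with 230.0 and 200.2 CPM (0.20). Proteins of the cytoplasmic ribosome had a median of -0.0083 in macrophages, with 37 of 85 higher.

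Assembly factors of the complexes were higher for 10 of 16 in macrophages (46.1% of all genes). Cox16, a factor for complex IV, had 38.9 and 26.9 CPM (log2 ratio 0.53, interval 0.45 to 0.62) and in B cells 34.7 and 27.1 CPM (0.36, interval 0.19 to 0.52). Sdhaf4, which acts on Sdha, had 59.4 and 47.8 CPM (0.31). Enzymes of the tricarboxylic acid cycle were higher for 5 of 15 (median -0.019), where 46.1% of all genes were and their median was -0.012. Pdhb, of pyruvate dehydrogenase, had 33.0 and 36.3 CPM (-0.14) and the malate dehydrogenase Mdh2 136 and 127 CPM (0.10).

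Of import genes and chaperones 11 of 17 were higher in macrophages (46.1% of all genes) and 4 of 17 in B cells (54.7%). The import receptor Tomm22 had 150.1 and 133 CPM (0.17) in macrophages. The chaperone Hspd1 had 57.7 and 66.0 CPM (-0.19, interval -0.25 to -0.14) in macrophages and 67.4 and 103 CPM (-0.61, interval -0.72 to -0.51) in B cells. Of the carriers, 5 of 8 were higher (46.1% of all genes), while the uncoupling protein gene Ucp2 had 785 and 857 CPM (-0.13) and Cpt1a, which admits fatty acids to mitochondria, 44.4 and 50.8 CPM (-0.19). Of the 14 nuclear regulators listed 4 reached 20 CPM in macrophages, and Rxra, with 33.0 and 37.6 CPM (-0.19, interval -0.27 to -0.11), and Yy1, with 60.3 and 63.9 CPM (-0.084), had intervals below 0. Of the 26 genes of mitochondrial transcription and RNA handling 3 reached that level and were higher, Ssbp1, which binds single-stranded mitochondrial DNA, with 51.4 and 46.2 CPM (0.15). The median of this list turned sign with mitochondrial and ribosomal protein genes left out of the total. Levels are higher over that smaller total, so further genes of the list can reach 20 CPM, and that median is not one of the same 3 genes.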

How the data were processed

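Peritoneal cells were profiled with the 10x 3′ v2 chemistry, per the labels' protocols. The deposited matrices contain whole-number UMI counts of genes by barcodes, not normalized. Their headers give software version 3.0.0, and the submitters' processing notes name Cell Ranger and mm10. The annotation release is not given in the sources used here. Positions are from GENCODE M21.

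Barcodes under 200 genes (36 and 38) or above 10% mitochondrial UMIs (509 and 773) were dropped. Gates asked for 3 or more detected markers and, per 10000 UMIs, 25 macrophage, 20 B cell, 8 T cell, 20 NK cell, 30 neutrophil or 8 cDC2 marker UMIs. Inside macrophages LPM needed 30 LPM-marker UMIs, LPM-marker-low cells had under 20, and Retnla-high cells 10 of Retnla. Barcodes in several lineage gates (612 and 474) were dropped as possible doublets, without a doublet caller, and 1023 and 983 fitted no gate. Gate limits were set after the marker distributions had been seen, and members and lists were chosen with earlier results of these data known.

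UMIs were summed by library and class and scaled to CPM. Intervals are exact Poisson for levels, exact conditional binomial for ratios and log-normal for genome ratios (scipy 1.17.1), and cover counting error only. Full values are given for up to 3 members per complex and genome in macrophages, ranked by the interval bound nearest to 0, up to 3 per direction in other large classes, and up to 3 per other list. Further members named, and those in comparisons of classes, were chosen after their values were seen. Tested on simulated data, 94.8% of intervals of unchanged genes held the true value at macrophage depth (4470 genes). The simulated counts carried counting error only, so a value near 95% follows from the setup. Spread between cells, animals or libraries was not simulated. At NK cell depth (4786 genes), 35.5% of unchanged genes passed 1.2-fold by counting error. Alternatives were other mitochondrial limits, gates, totals, CPM minimums, weights and depths.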

Additional observations from a re-analysis of the deposited data

Results flagged for a closer look

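Macrophages and B cells lay on opposite sides between the libraries for the genome ratio, the mitochondrial sum, 4 mitochondrial genes and 2 nuclear genes, with counting intervals off 0 in both classes. With 1 library per group the difference between the classes was not tested. The share of all genes that met the same rule is not given here, so these counts of genes have no background. The genome ratio of B cells was higher in Cd36-/- only at 2000 to below 4000 and at 4000 to below 8000 UMIs. In the other depth ranges it was lower. The log2 ratio of the genome ratio was -0.1885 in macrophages and 0.0214 in B cells, and that of the mitochondrial sum -0.1091 and 0.0313. By gene, in the same order, mt-Co1 had -0.0741 and 0.0765, mt-Co3 -0.083 and 0.0983, mt-Atp6 -0.1114 and 0.0253, and mt-Cytb -0.0572 and 0.0727. Both nuclear genes belong to complex IV, Ndufa4 with 0.0844 and -0.084, and Cox7c with 0.0443 and -0.0447. With mitochondrial and ribosomal protein genes left out of the total, the mitochondrial sum in B cells turned to -0.0043 and mt-Atp6 there to -0.010, while mt-Co1 had 0.041, mt-Co3 0.063 and mt-Cytb 0.037 in B cells. Ndufa4 and Cox7c had 0.061 and 0.021 in macrophages and -0.12 and -0.080 in B cells under that total. Macrophage markers summed to 581 and 430.5 CPM in B cells of the Cd36-/- and the fl/fl library, and their part in these values was not tested.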

How the results depend on the processing

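No paired analysis was possible because each group is 1 library with no replicate numbers to pair. In macrophages the number of nuclear members higher in Cd36-/- was 32 to 39 under the 12 alternatives, and that of mitochondrial members 0 in each. These counts are not all out of the same number, since fewer members were compared with a minimum of 100 CPM. Of all genes 59.0% were higher with that minimum and 46.1% with 20 CPM. Shares of all genes under the other alternatives are not given here. The log2 ratio of the genome ratio was below 0 in macrophages, LPM and LPM-marker-low cells under the 10 alternatives run for it. In this order of classes it was -0.18, -0.20 and -0.18 with a limit of 5%, -0.20, -0.22 and -0.21 with none, -0.24, -0.26 and -0.23 with per-cell means and -0.23, -0.25 and -0.22 in cells thinned to 2000 UMIs. In LPM it was -0.17 with stricter gates and -0.22 without the deepest 5% of cells. In B cells it was 0.012 with the limit of 5%, 0.034 with per-cell means, 0.038 without the deepest 5% and 0.058 when thinned. In NK cells it was -0.14 with stricter gates, -0.058 with per-cell means, -0.014 without the deepest 5% and -0.058 when thinned, and in thinned T cells it was 0.017. The median of the mitochondrial members of NK cells was -0.057 with stricter gates, where 3 were higher, 0.053 with per-cell means and 0.068 without the deepest 5%. With mitochondrial and ribosomal protein genes left out of the total, 1 mitochondrial member was higher in LPM. This total shifts all genes of a class by the same amount, and shares of all genes under it are not given here. In T cells this total gave 15 nuclear members higher (median -0.028, sum -0.044) and 0 mitochondrial ones (median -0.10), and thinning gave 7 mitochondrial ones. In B cells it gave -0.026 for the nuclear and -0.0043 for the mitochondrial sum. The median of the list of mitochondrial transcription and RNA handling turned to -0.035 in macrophages under this total and to -0.067 with a minimum of 5 CPM. In B cells it turned to -0.020 when thinned and -0.037 with 5 CPM. The genes of the list that reach the minimum can differ between these settings. The cause was not tested. Differences between animals are unknown, and with few cells in the NK, cDC2 and neutrophil classes most ratios of single members are within counting error.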
